A study of Oryza sativa with 3 samples.

Results

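Fasciclin and COBRA genes of rice (Oryza sativa) encode proteins of the cell surface that are tied to the building of plant cell walls. The genes described here are those whose deposited description names fasciclin or COBRA, on rows with a single gene identifier, together with BC1 (LOC_Os03g30250), whose own description already names COBRA. This gave 40 of 54534 single-identifier genes, of which 29 were fasciclin genes and 11 were COBRA genes. The rule used descriptions alone and no expression value.

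Total RNA was sequenced as paired-end libraries from node, stem and leaf blade, with 1 library per tissue. A node is the joint of the culm that bears a leaf, and RNA of nodes I and II made up the node library. All plants grew at 29 °C under 12 h of light at about 80000 lux and 12 h of dark, in a greenhouse or a growth chamber. The variety, the plant age and the number of plants pooled are not stated in the sources used here, and neither is any treatment.

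Fasciclin proteins carry a domain first known from adhesion molecules of insects. In plants many of them are also arabinogalactan proteins, meaning that they bear branched sugar chains, and many are held at the outer face of the plasma membrane by a lipid (GPI) anchor. In Arabidopsis some fasciclin-like arabinogalactan proteins act in the secondary walls of stems. COBRA proteins are GPI-anchored as well, and the founding Arabidopsis member is needed for cellulose microfibrils to be laid down in an oriented way. BC1 is a rice COBRA-like gene named for the brittle culm of its mutants, whose sclerenchyma walls are thin and poor in cellulose. The other members are called by their locus identifiers, since the sources used here give them no symbols.

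Levels are given as FPKM, which scales the fragments of a gene to the length of its transcript and to the size of the library. The implied number of fragments, read from the deposited intervals, was 39960000 in node, 43160000 in stem and 39880000 in leaf blade, and the interval of a gene at 10 FPKM or more reached 5.06%, 4.79% and 5.01% either side of its value at the median. These intervals cover counting error only. With no replicates, no difference below has a replicate check or a p-value. A gene was called higher or lower at 4-fold or more, that is a log2 difference of 2 on the log2(FPKM + 1) scale, on which scarce genes appear less different than they are.

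The summed level of 4 leaf mesophyll genes was 478 FPKM in node, 3459 in stem and 6870 in leaf blade. Against leaf blade, 3 of these passed 4-fold downwards in stem, whereas the antenna gene CAB2R was at 2741 FPKM in stem, against 1999 FPKM in leaf blade. The sum of 3 meristem homeobox genes was 386, 448 and 0.579 FPKM, and that of 3 mineral transporters of nodes was 250.02, 64.3 and 0.547 FPKM. The meristem genes were split between node and stem. OSH1 (131 FPKM in node and 19.6 in stem) and OSH71 (110 and 17.3) were higher in node, while OSH15 (145 and 411) was higher in stem. The 3 secondary wall cellulose synthases summed to 53.9 FPKM in node, 77.7 in stem and 0.303 in leaf blade, and 2 floral transition genes summed to 834, 870.03 and 90.3 FPKM. No marker was listed at 0. Like the fasciclin and COBRA sums given below, the sums of the last 4 lists were lowest in leaf blade, whereas the mesophyll sum was highest there. Their part in the differences was not tested. In such bulk tissue, fewer cells of one type and less RNA per cell cannot be told apart.

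The summed level of both gene classes was higher in node and stem than in leaf blade, and the contrast was widest for the fasciclin genes. Over the 27 fasciclin genes found with a row of their own in all 3 libraries, the summed level was 412 FPKM in node, 359 in stem and 5.87 in leaf blade. The node sum was 70.1 times and the stem sum 61.2 times that of leaf blade. Counted as shares of each library's implied fragments, the ratios were 52.8 and 46.4. For the 11 COBRA genes the sums were 328 FPKM in node, 188 in stem and 41.4 in leaf blade. This is 7.94 times the leaf blade sum in node and 4.54 times in stem. As shares of the implied fragments, these COBRA ratios were 6.99 and 3.99. The stem contrast of the COBRA sum rested mainly on LOC_Os05g32110, at 151 FPKM in stem and 6.59 in leaf blade. Of 10 COBRA genes at 1 FPKM or more somewhere, 6 were above their leaf blade level in stem and 4 below it, at any fold.

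A few genes held most of each sum, and the leading gene differed between tissues. LOC_Os05g32110, described as a COBRA gene, held 50.6% of the COBRA sum in node and 80.3% in stem. In leaf blade LOC_Os10g35460 led instead, with 63.7% of that sum. Among the fasciclin genes LOC_Os08g23180 and LOC_Os05g48900 led in all 3 tissues, with 23.8% and 22.4% in node, 31.5% and 31.8% in stem, and 37.0% and 26.0% in leaf blade. The 3 most abundant fasciclin genes held 57.4% in node against 74.3% in stem, so the node sum was spread over more genes.

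**Figure D1:**
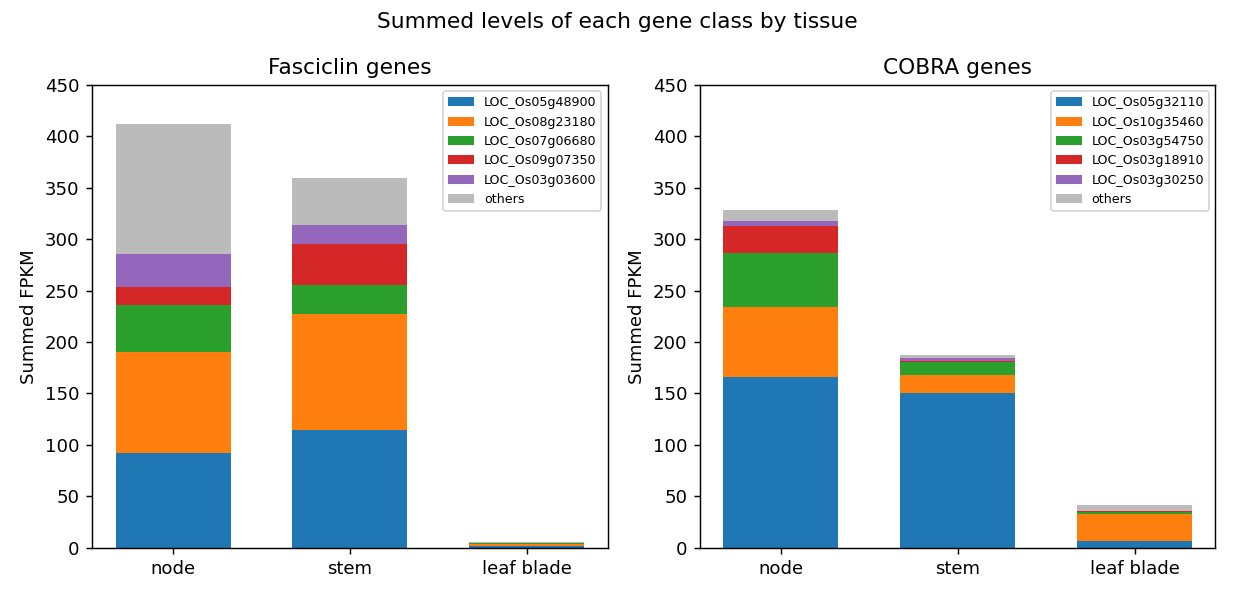
Summed FPKM (vertical axis) of the 27 fasciclin genes (left) and the 11 COBRA genes (right) in node, stem and leaf blade, 1 library each, with the 5 most abundant genes of each class in colour and the others in grey. The fasciclin bars reach 412, 359 and 5.87 FPKM and the COBRA bars 328, 188 and 41.4 FPKM.

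Of the 38 members with a row in every library, 28 had 1 FPKM or more somewhere and entered the comparisons, 18 fasciclin and 10 COBRA genes, among 20097 genes in all. The other 10 stayed below 1 FPKM in each tissue. Of these, 4 were listed at 0 in all 3 libraries (the fasciclin genes LOC_Os02g20540, LOC_Os02g26320, LOC_Os04g21570 and LOC_Os06g44660), and 6 were above 0 in 1 tissue alone. LOC_Os02g20560 was the highest of them, at 0.658 FPKM in stem from 39 fragments, and the other 5 had 1 or 2 fragments. Because 20 of the 28 genes compared were under 1 FPKM in leaf blade and passed only through another tissue, the counts below describe the members and do not stand as support for a difference.

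In node versus leaf blade 19 of 28 members were higher by 4-fold or more, and none were lower. Of all genes compared, 12.3% were higher and 7.29% were lower. The fasciclin genes had 14 of 18 higher, with a median log2 difference of 3.54. Of those 14, 3 were listed at 0 in leaf blade (LOC_Os01g47780, LOC_Os09g30010 and LOC_Os09g30486). Rescaling the libraries by their upper quartiles ended the call of LOC_Os09g30010, leaving 18 members higher, with 11.8% of all genes higher. The COBRA genes had 5 of 10 higher, with a median of 1.93, against a median of 0.13 over all genes compared. The log2 difference was positive for 27 of the 28 members and for 11120 of the 20097 genes compared.

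In stem versus leaf blade 11 of 28 members were higher and none were lower, against 6.43% higher and 6.52% lower among all genes compared. The fasciclin genes had 9 of 18 higher (median log2 difference 2.10) and the COBRA genes 2 of 10 (median 0.60), with a median of -0.02 over all genes. In node versus stem only 5 of 28 members were higher and none were lower, where all genes compared had 6.82% higher and 2.3% lower. Those 5 were 3 fasciclin genes and 2 COBRA genes, and the medians were 1.00 for fasciclin, 1.38 for COBRA and 0.16 for all genes. The 3 comparisons share libraries and are not independent. Rescaling the libraries by their upper quartiles brought the median of all genes in node versus stem to 0.06. The 5 members were still past 4-fold, with 6.27% of all genes higher. The counts of members higher moved with the pseudocount, to 24, 19 and 10 in the 3 comparisons at 0.1, where 19.8%, 12.0% and 13.3% of all genes were higher, and to 11, 6 and 2 at 5, where 5.37%, 2.9% and 2.4% were.

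Node held the highest level of 21 of the 28 members, stem that of 6 and leaf blade that of 1. Over all genes compared the shares were 40.9% in node, 22.4% in stem and 36.8% in leaf blade. All 18 fasciclin genes were highest in node (13) or stem (5). The single member highest in leaf blade was the COBRA-like gene LOC_Os07g49080.

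**Figure D2:**
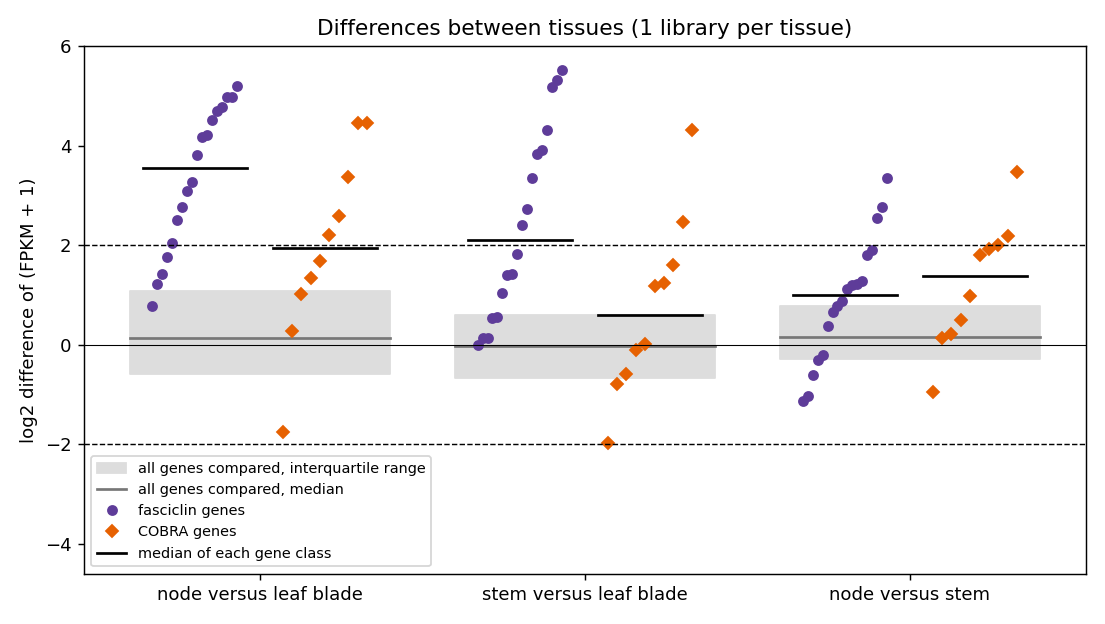
Log2 difference of (FPKM + 1) (vertical axis) for each of the 18 fasciclin and 10 COBRA genes compared, for the 3 pairs of tissues named on the horizontal axis, 1 library per tissue; black bars are class medians, grey bands and lines the interquartile range and the median of all 20097 genes, and dashed lines mark 4-fold. The fasciclin medians are 3.54, 2.10 and 1.00, and no member lies below the lower dashed line.

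BC1, the COBRA-like gene of the brittle culm, had 5.42 FPKM in node (deposited interval 4.98 to 5.85), 2.28 in stem (2.01 to 2.55) and 0.0759 in leaf blade (0.0253 to 0.127). Its level was thus highest in node, intermediate in stem and lowest in leaf blade, where it rested on 9 fragments, and no 2 of the intervals overlapped. The log2 difference was 2.58 in node versus leaf blade, 1.61 in stem versus leaf blade and 0.97 between node and stem. Computed from shares of the implied fragments it was 3.91, 2.81 and 1.10, so stem also passed 4-fold against leaf blade on that scale. BC1 lies on chromosome 3 at 17260196 to 17262960. Its locus overlaps that of another COBRA-like member, LOC_Os03g30260 (17261821 to 17266546), so fragments from the shared stretch could be assigned to either gene. LOC_Os03g30260 had the same order at lower levels, with 2.31 FPKM in node, 1.36 in stem and 0.0386 in leaf blade, and was under 4-fold in each comparison on this scale.

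LOC_Os05g32110 (chromosome 5, 18721262 to 18724905) was the most abundant member of either class in node and in stem, though not in leaf blade. It had 166 FPKM in node (163 to 170), 151 in stem (148 to 154) and 6.59 in leaf blade (5.89 to 7.30). Node and stem were nearly level, with a log2 difference of 0.14 and intervals that did not overlap, and both stood far above leaf blade, by 4.46 and 4.32.

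Other COBRA genes separated node from stem. LOC_Os03g18910 (chromosome 3, 10598952 to 10601530), described as a COBRA-like protein 7 precursor, had 25.8 FPKM in node (24.9 to 26.8), 1.41 in stem (1.20 to 1.63) and 1.60 in leaf blade (1.37 to 1.83). Its stem and leaf blade intervals overlapped, and node differed from leaf blade by 3.37 and from stem by 3.47 on the log2 scale, the second value being the largest of any member between node and stem with 1 added to FPKM. LOC_Os07g41320 had 3.70 FPKM in node and only 0.0367 in stem and 0.0259 in leaf blade, from 3 and 2 fragments. Both genes were 4-fold or more above each other tissue in node, as were 5.26% of all genes compared.

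LOC_Os03g54750, described as a COBRA-like 3 protein precursor, stepped down through the tissues, with 52.6 FPKM in node (49.6 to 55.7), 12.5 in stem (11.1 to 13.9) and 1.45 in leaf blade (1.01 to 1.89). The log2 differences were 4.45 in node versus leaf blade, 2.46 in stem versus leaf blade and 1.99 between node and stem, the last just short of 4-fold. The locus of LOC_Os03g54750 differed between libraries.

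LOC_Os10g35460 was the COBRA gene with most expression in leaf blade, with 67.8 FPKM in node, 17.2 in stem and 26.3 in leaf blade. Stem was therefore its lowest tissue, and every difference was under 4-fold. LOC_Os07g41310 showed the same order at lower levels, with 3.70 FPKM in node, 0.350 in stem and 1.33 in leaf blade. Its log2 difference in node versus stem was 1.80 with 1 added to FPKM. On shares of the implied fragments it was 2.42, past 4-fold. LOC_Os04g45700 had 0.407 FPKM in node, 1.73 in stem and 0.158 in leaf blade. It was the single COBRA gene highest in stem, but its locus differed between libraries and its fragments per FPKM differed 2.20 times between them. Its implied fragments were 29 in node, 63.0 in stem and 7 in leaf blade.

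LOC_Os07g49080, another gene described as a COBRA-like protein 7 precursor, ran against the rest. It had 0.412 FPKM in node (0.256 to 0.569), 0.217 in stem (0.130 to 0.304) and 3.75 in leaf blade (3.33 to 4.17). The log2 difference was -1.75 in node versus leaf blade and -1.97 in stem versus leaf blade, both short of 4-fold on this scale. Its implied fragments numbered 27.7 in node, 25 in stem and 322 in leaf blade. Computed from its share of the implied fragments, the log2 differences were -2.55 and -2.65, past 4-fold. The locus of LOC_Os07g49080 also differed between libraries.

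**Figure D3:**
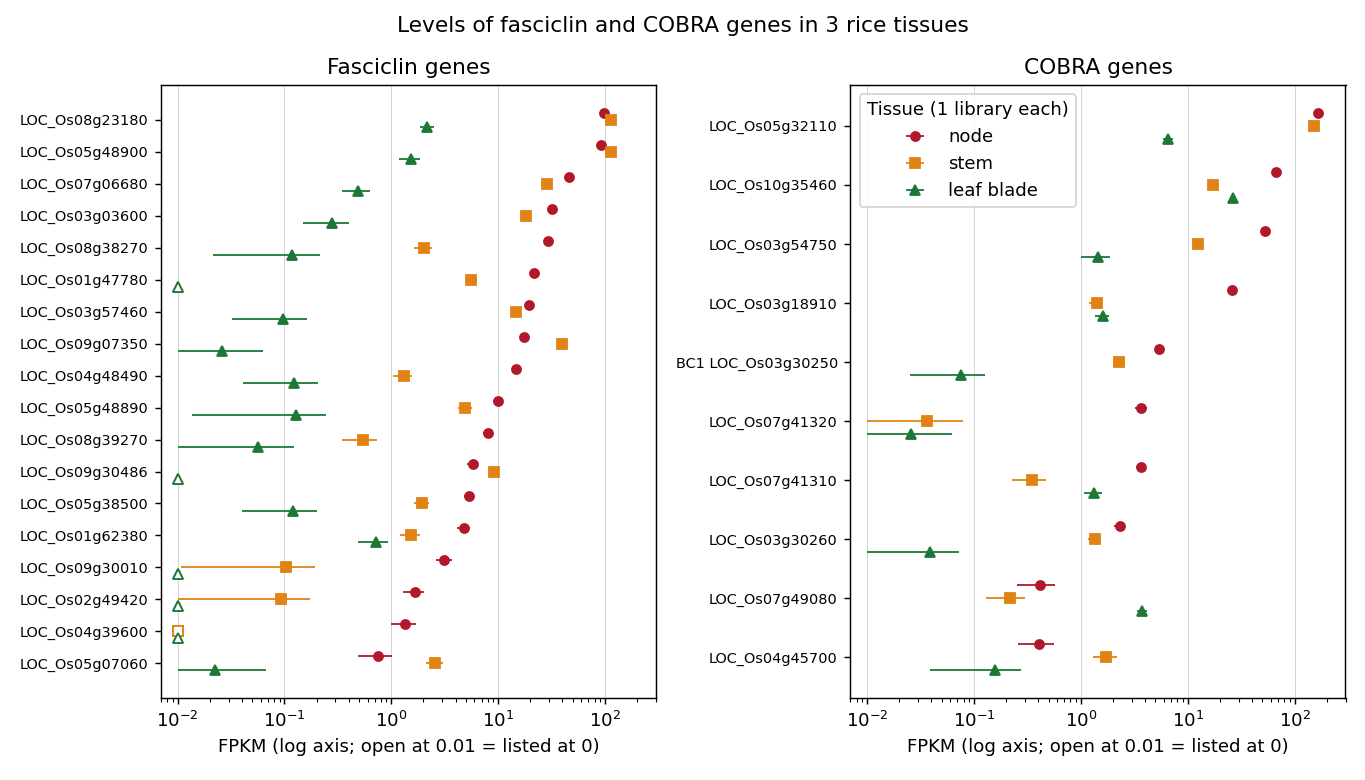
FPKM on a log axis (horizontal) of the 18 fasciclin (left) and 10 COBRA genes (right) compared, in node (circles), stem (squares) and leaf blade (triangles), 1 library each; bars are the deposited intervals, cut at 0.01, and open symbols at 0.01 are genes listed at 0. Leaf blade symbols lie left of the node symbol for every gene but LOC_Os07g49080.

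Among the fasciclin genes 12 were described as fasciclin-like arabinogalactan proteins and 17 by the fasciclin domain alone. The 7 arabinogalactan-type genes compared had 5 higher in node versus leaf blade and 3 higher in stem versus leaf blade. The 11 domain-only genes compared had 9 and 6 higher. Levels of both types ranged widely, and the pattern across tissues took 3 forms: similar levels in node and stem, a lead of node, and a lead of stem. The forms are descriptive and follow no set threshold.

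The 2 most abundant fasciclin genes had similar levels in node and stem, with log2 differences of -0.31 and -0.20. For each of them the stem interval lay above the node interval. LOC_Os05g48900 (chromosome 5, 28051693 to 28052945) had 92.1 FPKM in node (89.3 to 94.8), 114 in stem (111 to 117) and 1.52 in leaf blade (1.18 to 1.87), with log2 differences from leaf blade of 5.20 in node and 5.51 in stem. On the log2(FPKM + 1) scale these differences were the largest of any member. On shares of the implied fragments LOC_Os07g06680 (5.67), LOC_Os03g57460 (5.34) and LOC_Os03g03600 (5.311) were above LOC_Os05g48900 (5.308) in node. On the same shares LOC_Os09g07350 was above LOC_Os05g48900 in stem (6.40 against 5.68). LOC_Os08g23180 (chromosome 8, 13985040 to 13988220), described as a fasciclin-like arabinogalactan protein 8 precursor, had 98.1 FPKM in node (94.7 to 101), 113 in stem (110 to 116) and 2.17 in leaf blade (1.85 to 2.49). Its interval overlapped that of LOC_Os05g48900 in stem, and in node the intervals of these 2 genes barely overlapped. Whether their order there lay beyond counting error was not tested.

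The size of the difference for LOC_Os08g23180 depended on the length model. Relative to the library's median, its fragments per FPKM were 0.663 in node, 0.644 in stem and 1.54 in leaf blade, although its locus was the same in all 3 libraries. Its log2 differences from leaf blade were 4.97 in node and 5.17 in stem in FPKM, and 3.96 and 4.20 as shares of the implied fragments, past 4-fold on both scales. It was 1 of 3 members, out of 27 with enough fragments in 2 or more libraries, for which this quantity differed over 1.5 times, with LOC_Os04g45700 and LOC_Os07g49080.

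A middle tier of fasciclin genes was somewhat higher in node than in stem and barely detected in leaf blade. LOC_Os07g06680 had 46.0 FPKM in node (44.5 to 47.4), 28.6 in stem (27.5 to 29.7) and 0.490 in leaf blade (0.344 to 0.636), and its log2 difference from leaf blade was 4.98 in node and 4.31 in stem. LOC_Os03g03600, an arabinogalactan-type gene, had 31.8 FPKM in node (30.4 to 33.2), 18.1 in stem (17.1 to 19.1) and 0.276 in leaf blade (0.150 to 0.403), with differences of 4.69 and 3.91. For LOC_Os03g57460 the values were 19.3 FPKM in node (18.4 to 20.2), 14.6 in stem (13.9 to 15.4) and 0.0971 in leaf blade (0.0324 to 0.162), and the differences were 4.21 and 3.83. None of these 3 reached 4-fold between node and stem, where their log2 differences were 0.66, 0.78 and 0.38, but their node and stem intervals did not overlap. The LOC_Os03g57460 locus overlapped an expressed row with no identifier.

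LOC_Os01g47780 and LOC_Os05g48890 followed the same order with a wider step. LOC_Os01g47780 had 21.8 FPKM in node (20.3 to 23.3) and 5.60 in stem (4.87 to 6.32) and was listed at 0 in leaf blade, and its log2 difference in node versus stem was 1.79. LOC_Os05g48890 had 9.92 FPKM in node (8.88 to 11.0), 4.94 in stem (4.24 to 5.63) and 0.129 in leaf blade (0.0137 to 0.245). Its log2 differences were 3.27 in node versus leaf blade, 2.39 in stem versus leaf blade and 0.88 between node and stem. LOC_Os05g38500, of the arabinogalactan type, had 5.37 FPKM in node (4.82 to 5.92), 1.95 in stem (1.63 to 2.26) and 0.121 in leaf blade (0.0404 to 0.202), and passed 4-fold on this scale between node and leaf blade alone, at 2.51.

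The node predominated for 3 fasciclin genes, each 4-fold or more above both other tissues with 1 added to FPKM. LOC_Os08g38270 had 29.5 FPKM in node (27.9 to 31.0), 2.01 in stem (1.62 to 2.39) and 0.117 in leaf blade (0.0215 to 0.213), and its log2 difference in node versus stem was 3.34. LOC_Os04g48490, of the arabinogalactan type, had 14.7 FPKM in node (13.8 to 15.6), 1.30 in stem (1.04 to 1.56) and 0.123 in leaf blade (0.0410 to 0.205), a difference of 2.77 between node and stem. LOC_Os08g39270 had 7.98 FPKM in node (7.18 to 8.78), 0.542 in stem (0.344 to 0.740) and 0.0571 in leaf blade (0 to 0.123), a difference of 2.54. In stem versus leaf blade their log2 differences were 1.43, 1.04 and 0.54, under 4-fold with 1 added to FPKM, and 3.28, 2.66 and 2.03, past 4-fold, with 0.1 added. With 1 added to FPKM, no member was 4-fold or more above each other tissue in stem or in leaf blade, where 0.921% and 4.56% of all genes were.

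Stem led for another set of fasciclin genes. LOC_Os09g07350, of the arabinogalactan type, had 17.5 FPKM in node (16.6 to 18.5), 39.6 in stem (38.2 to 41.0) and 0.0260 in leaf blade (0 to 0.0628), where it rested on 2 fragments. Its log2 difference was 4.18 in node versus leaf blade, 5.31 in stem versus leaf blade and -1.13 between node and stem. LOC_Os09g30486 had 5.75 FPKM in node (5.08 to 6.43) and 9.24 in stem (8.42 to 10.1) and was listed at 0 in leaf blade. LOC_Os05g07060 had 0.756 FPKM in node, 2.59 in stem and 0.0223 in leaf blade, from a single fragment. In all 3 the stem interval lay above the node interval, yet none differed by 4-fold between node and stem. The loci of LOC_Os09g07350 and LOC_Os09g30486 each overlapped other expressed rows.

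The remaining 4 fasciclin genes were scarce everywhere and highest in node. LOC_Os01g62380, whose locus differed between libraries and overlapped that of LOC_Os01g62370, had 4.79 FPKM in node, 1.53 in stem and 0.715 in leaf blade. LOC_Os09g30010 had 3.13 FPKM in node and 0.103 in stem, and LOC_Os02g49420 had 1.67 and 0.0925. LOC_Os04g39600 had 1.34 FPKM in node and was listed at 0 in stem. The last 3 were listed at 0 in leaf blade. On shares of the implied fragments LOC_Os09g30010 was past 4-fold in node against both other tissues, at 2.33 versus leaf blade and 2.14 versus stem. In all, 5 of the 28 members compared were listed at 0 in leaf blade, and without these the median log2 difference in node versus leaf blade was 3.27 over the other 23 members, against 2.92 over all 28.

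Some members lay near each other on the chromosome. Of the 40 genes, 14 formed 7 pairs with less than 100 kb between their loci, 5 pairs of fasciclin genes and 2 of COBRA genes. How often other gene groups form such pairs was not computed. Neighbours did not always share a pattern. LOC_Os07g41310 and LOC_Os07g41320, 52 bp apart on chromosome 7, were level in node at 3.70 FPKM each, with overlapping intervals. In stem and leaf blade they parted. LOC_Os07g41310 had 0.350 FPKM in stem (0.228 to 0.473) and 1.33 in leaf blade (1.08 to 1.57). LOC_Os07g41320 had 0.0367 FPKM in stem (0 to 0.0791) and 0.0259 in leaf blade (0 to 0.0625). LOC_Os05g48890 and LOC_Os05g48900, 3349 bp apart on chromosome 5, differed in level by far more than their intervals in all 3 tissues, and in order too. LOC_Os05g48890 was higher in node than in stem, and LOC_Os05g48900 was lower in node than in stem. BC1 and LOC_Os03g30260 overlapped by 1140 bp and kept the same order of tissues. Of LOC_Os04g39590 and LOC_Os04g39600, 278 bp apart on chromosome 4, the first had 1 fragment in node, for 0.0363 FPKM, and none elsewhere. The pairs LOC_Os02g20540 with LOC_Os02g20560 and LOC_Os02g26290 with LOC_Os02g26320 were below 1 FPKM in every tissue. Fragments of near-identical neighbours could be shared between them in the deposited values.

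**Figure D4:**
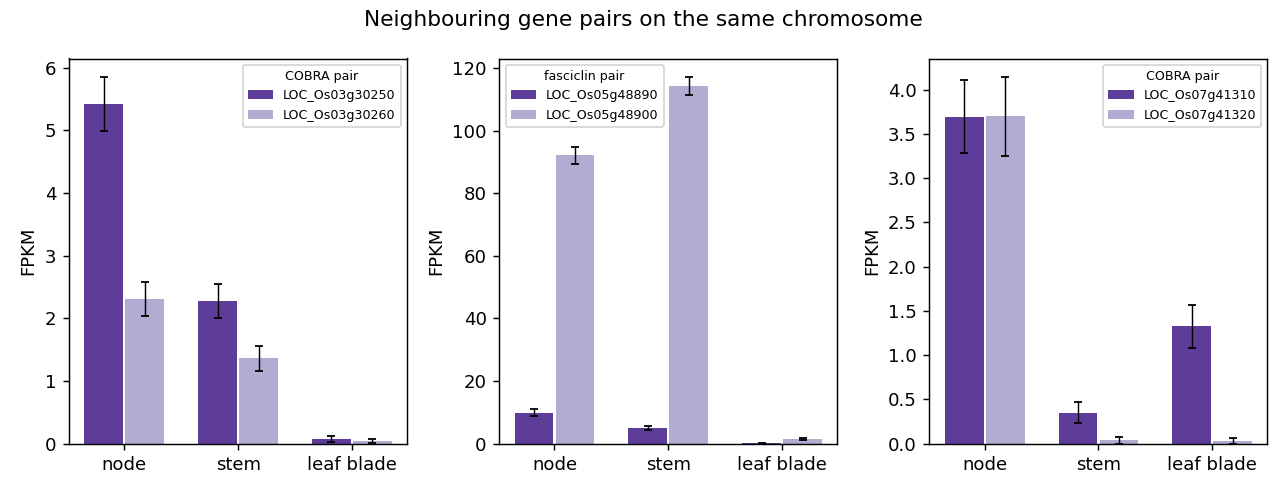
FPKM (vertical axis, from 0, scale differs by panel) in node, stem and leaf blade of the 3 neighbouring pairs with both genes compared; bars are single libraries and error bars the deposited intervals. The genes of the BC1 pair (left) keep the same order of tissues, and the chromosome 5 pair (middle) differs in level and in the order of node and stem. The chromosome 7 pair (right) is level at 3.70 FPKM in node and parts in stem and leaf blade.

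The fasciclin genes LOC_Os01g06580 and LOC_Os03g57490 had no row of their own in every library, because a neighbouring gene was merged with them. LOC_Os01g06580 had 4.68 FPKM in stem (4.07 to 5.29) and 0.105 in leaf blade (0.0111 to 0.199). LOC_Os03g57490, which lies 17751 bp from LOC_Os03g57460, had 0.0907 FPKM in leaf blade (0.0266 to 0.155). Neither was compared.

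Other genes of the wall and the cell surface gave the members a setting. Their counts stand beside those of all genes compared. Of these, 12.3% were higher and 7.29% lower in node versus leaf blade. In stem versus leaf blade 6.43% were higher and 6.52% lower, and in node versus stem 6.82% and 2.3%. A list of cellulose machinery held the 9 cellulose synthases CESA1 to CESA9, which make the glucan chains, and 3 brittle culm genes whose symbols rest on their identifiers alone. Of its 12 genes, 11 were higher in node versus leaf blade, 7 in stem versus leaf blade and 3 higher in node than stem, with none lower (medians 3.95, 3.09 and 0.38). CESA8 was level between node and stem, at 82.3 FPKM in node, 82.8 in stem and 1.47 in leaf blade, as was LOC_Os05g32110 among the COBRA genes. The secondary wall synthase CESA7 had 18.5 FPKM in node, 25.3 in stem and 0.0411 in leaf blade. CESA4 had 21.1, 18.0 and 0.205 FPKM in the same tissues, and CESA9 had 14.3, 34.3 and 0.0566. In node versus stem the genes past 4-fold were CESA5 (21.4 FPKM in node and 3.76 in stem), CESA6 (41.6 and 8.49) and BC12, described as a kinesin motor gene (29.5 and 6.47).

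Arabinogalactan proteins without a fasciclin domain had 3 of 5 genes higher in node versus leaf blade, 0 in stem versus leaf blade and 2 higher in node than stem, none lower (medians 2.15, 0.32 and 1.83). The arabinogalactan peptide gene LOC_Os06g21410 had 6.40 FPKM in node and was listed at 0 in stem and leaf blade. LOC_Os03g56944 had 5.39 FPKM in node, 0.103 in stem and 0.370 in leaf blade, and LOC_Os01g71170 had 3.44, 0.247 and 0. LOC_Os03g63540 had 2.57, 1.43 and 0.0515 FPKM, and LOC_Os09g33800, the most abundant, had 64.4, 65.6 and 47.2.

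Genes described as plastocyanin-like or early nodulin, most of them phytocyanins of the cell surface, had 18 of 35 higher and 3 lower in node versus leaf blade, 7 higher and 2 lower in stem versus leaf blade, and 10 higher and 3 lower in node versus stem (medians 2.08, 0.40 and 1.11). Of the 35, 4 were of the ENOD93 type, which is not a phytocyanin. LOC_Os06g04990, an ENOD93 gene, had 118 FPKM in node, 45.2 in stem and 0.481 in leaf blade. LOC_Os03g63390 had 88.4, 11.5 and 1.36 FPKM, and LOC_Os01g17470 had 36.4, 33.5 and 0.117. In contrast to every fasciclin gene compared, LOC_Os11g24140 was 4-fold or more lower in node than in stem, with 8.40 FPKM in node, 319 in stem and 0.180 in leaf blade. LOC_Os09g29390 had 167, 6.09 and 23.6 FPKM, and LOC_Os02g49850 had 14.9, 0.710 and 2.54.

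Genes whose descriptions name GPI had 4 of 16 higher in node versus leaf blade, 2 in stem versus leaf blade and 2 higher in node than stem, with 1 lower in the last (medians 0.43, 0.19 and 0.42). Of the 16, 8 were anchored proteins and not parts of the anchor machinery. The anchored protein gene LOC_Os07g45060 had 96.4 FPKM in node, 49.8 in stem and 0.336 in leaf blade. The LysM-domain genes LOC_Os09g37600 and LOC_Os09g27890 had 8.70 and 6.09 FPKM in node against 0.233 and 0.391 in stem, and were at 0 and 0.129 FPKM in leaf blade. Among the anchor genes, the transamidase subunit gene LOC_Os02g46350 had 15.3, 14.5 and 29.6 FPKM, and LOC_Os03g03690 was listed at 0 in node and leaf blade and had 3.97 FPKM in stem. Whether these lists differ from the fasciclin and COBRA genes was not tested.

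**Figure D5:**
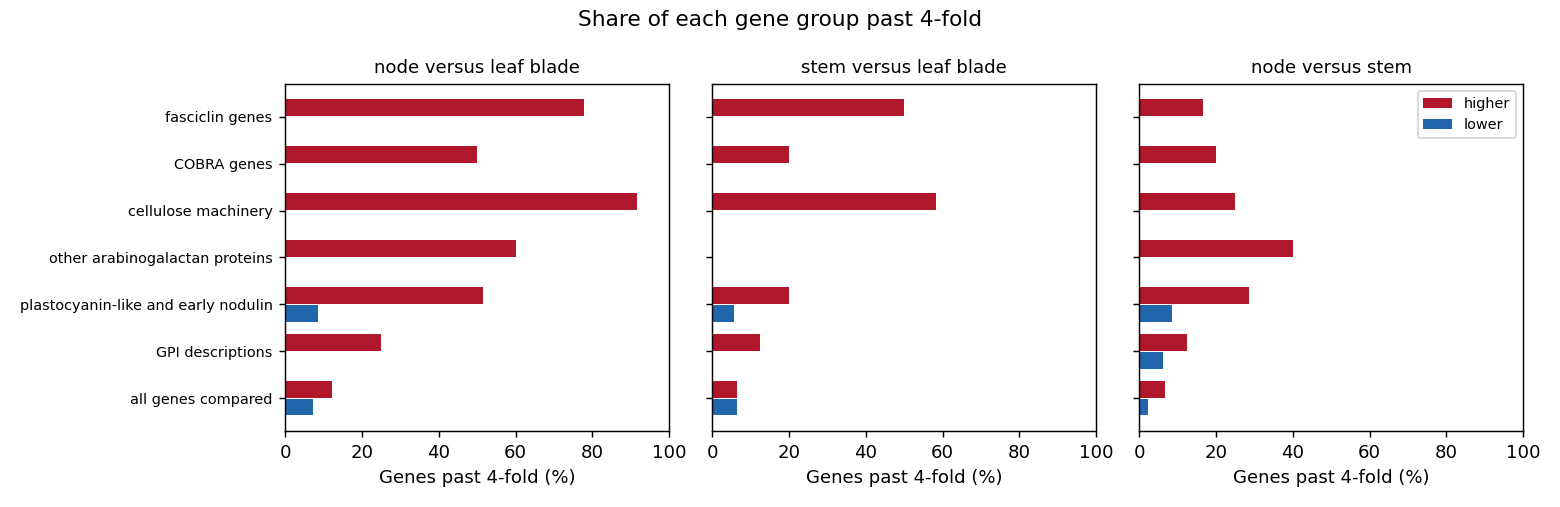
Percent of genes 4-fold or more higher (red) or lower (blue) in each of the 3 comparisons, for the fasciclin (18) and COBRA (10) genes, cellulose machinery (12), other arabinogalactan proteins (5), plastocyanin-like and early nodulin genes (35), genes with GPI in the description (16) and all 20097 genes compared. In node versus leaf blade 14 of 18 fasciclin and 11 of 12 cellulose genes were higher, against 12.3% of all genes.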

How the data were processed

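Total RNA of 3 rice tissues was sequenced, with 1 paired-end library each from node, stem and leaf blade, and tissues were grouped by the labels. The authors deposited FPKM for each gene, with the bounds of an interval, per the file headers. The submitters' processing notes list TopHat, without a version. No source used here gives the quantification program, genome build or annotation.

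Members, lists and alternatives were chosen with earlier results of these data known. Members were taken by description. Genes with a single identifier found once per library numbered 51597, and a gene entered the comparisons, as log2 ratios of (FPKM + 1), once some tissue showed 1 FPKM. Every member that passed this filter is named, with intervals for those at 5 FPKM or more and past 4-fold, and the 3 largest differences per list and comparison are named. With 1 library per tissue no test was run.

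Implied fragments, n, were solved from the upper bound on the reading that it lies 2 × FPKM / √n above FPKM. Shares of them are per 1000000 fragments, with 1 added before the log. Among the members above 0, n was whole within 0.02 for 13 of 30 in node, 20 of 32 in stem and 21 of 25 in leaf blade, so no count test was run. Deposited starts were taken to count from 0, since the deposited span was divisible by 3 for 42.5% to 42.8% of loci, and 1 was added. Strand was not given, so overlapping genes can share fragments. The RefSeq gene table matched 0 of 40 members and was not used further. No genome or sequence was used here. Analysis used Python 3.11.15, pandas 2.3.3 and numpy 2.4.6.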

Additional observations from a re-analysis of the deposited data

Results flagged for a closer look

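Signal lay in rows that no comparison used, where a fasciclin gene was merged with the neighbouring zinc finger (C3HC4) gene. In node the merged row of LOC_Os01g06580 and LOC_Os01g06590 had 53.9 FPKM (51.6 to 56.2), above the 0.0727 FPKM that 3 fragments would give there. The zinc finger gene alone was measured in the other libraries, at 10.2 FPKM (stem) and 14.4 FPKM (leaf blade). The merged row of LOC_Os03g57490 and LOC_Os03g57500 had 42.0 FPKM in node and 62.4 in stem, where 3 fragments would give 0.0355 and 0.0321. In leaf blade LOC_Os03g57500 alone had 47.9 FPKM. How much of each merged value belongs to the fasciclin gene was not tested.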

How the results depend on the processing

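The main limits are 1 library per tissue and many members near 0 in leaf blade, where values rest on few fragments. With a pseudocount of 0.1, members past 4-fold numbered 24 higher and 1 lower in node versus leaf blade (median 4.99), 19 higher and 1 lower in stem versus leaf blade (median 3.24), and 10 higher in node versus stem (median 1.31). Of all genes, 19.8%, 12.0% and 13.3% were then higher and 11.3%, 11.4% and 4.39% lower. With a pseudocount of 5 they numbered 11, 6 and 2 higher (medians 1.29, 0.45 and 0.58), with 5.37%, 2.9% and 2.4% of all genes higher and 3.34%, 2.7% and 0.911% lower. With no filter on low values the medians were 1.90, 0.65 and 0.43. With a filter at 5 FPKM they were 4.19 and 2.59 in node and stem versus leaf blade. On shares of the implied fragments 20, 15 and 7 members were higher in the 3 comparisons, with 13.6%, 7.32% and 8.01% of all genes higher. On these shares 1 member was lower in each of the first 2 comparisons (medians 3.43 and 2.06), with 8.39% and 7.62% of all genes lower. Rescaling without the 50 most abundant genes gave 1 lower in stem versus leaf blade, with 6.86% of all genes lower. The member lower in each case was LOC_Os07g49080. Over all settings, the differences of single members stayed on their side of 4-fold in 511 cases, gained the call in 30, lost it in 17 and reversed in 0. Of the 511, 84 came from the setting with no filter and 54 from the filter at 5 FPKM. Neither filter setting could change the difference of a single member. With a pseudocount of 0.1, 64 cases stayed and 20 gained the call, and with 5, 68 stayed and 16 lost it. Leaving out a library was not run, since each tissue has 1. No paired analysis was possible because each tissue has 1 library.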
